A study of Mus musculus with 4 samples.

Results

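The genes that build sterols and fatty acids, with the genes that control them, were compared in Beta-TC-6, an insulin-producing line of mouse pancreatic beta cells. The members are 41 genes listed by their function in these pathways, in 3 branches: SREBP control (5 genes), sterol steps (20) and fatty acid synthesis and desaturation (16). Each was read from the probe set that carries its symbol alone, or, where several did, from the probe set with the highest average. This gave 38 measured members of 22180 measured genes. Acat2, Idi1 and Scd2 were not analysed here, because no probe set carried their symbol alone.

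RNA was measured on the Affymetrix GeneChip Mouse Gene 2.1 ST, a single-colour array with probes along the whole transcript. The siNF90 group holds 2 arrays of cells transfected with a mixture of RNAi duplexes against NF90, a double-stranded RNA-binding protein, and the siNTC group holds 2 arrays of cells that received a negative control siRNA. Both groups were grown in DMEM with 25 mM glucose, 15% fetal bovine serum and penicillin-streptomycin, were transfected with the same lipid reagent and gave 250 ng of total RNA for labelling. The medium held serum. The labels used here give neither the time after transfection nor the number of cultures behind each group, so p-values reflect the spread among these 4 arrays alone, and that spread may be technical. The level of NF90 itself is not reported here, and the arrays are named by their labels.

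Cells sense sterols in the membrane of the endoplasmic reticulum. When sterols are low, the escort protein Scap carries the membrane-bound precursors of the transcription factors SREBP-1 and SREBP-2 to the Golgi, where proteases release their active part. When sterols are high, the proteins Insig-1 and Insig-2 hold Scap back in the endoplasmic reticulum. SREBP-2 is best known for activating the genes of cholesterol synthesis and SREBP-1c those of fatty acid synthesis, and Insig1 is itself an SREBP target. In beta cells, carbon from glucose leaves the mitochondria as citrate and feeds the cytosolic route from acetyl-CoA through malonyl-CoA to fatty acids.

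The 4 arrays shared their scale, with medians between 1.65 and 1.68 on the log2 scale. All 9 beta cell markers measured lay at or above 3.65 on every array, among them Ins2 at 7.88 to 8.01 and Iapp at 10.27 to 10.58. Of these 9 markers, 3 lay higher and 2 lower in siNF90 without overlap, beside 21.9% and 17.9% of all genes. The glucose transporter gene Slc2a2 stood at 6 and 5.8 in siNTC and at 4.78 and 4.86 in siNF90. The transcription factor genes Nkx6-1 (0.45) and Mafa (0.38) lay higher (log2 differences). In limma none of these genes passed, with adjusted p of 0.342 (Slc2a2), 0.397 (Nkx6-1) and 0.481 (Mafa). With a variance prior that depends on the expression level, Slc2a2 passed (limma, adjusted p = 0.0153), and Nkx6-1 (0.104) and Mafa (0.238) did not. Of the other islet hormones, Gcg (glucagon) lay at 8.5 and 8.75 in siNTC and at 8.88 and 8.78 in siNF90, and Sst (somatostatin) at 6.86 on both siNTC arrays and at 6.72 and 6.54 in siNF90, while Ppy overlapped. Defining markers of fat, stromal and endothelial cells lay below 2 in both groups (4 of 4 and 5 of 5 measured). Of the liver markers, Alb lay at 0.95 to 1.24, 3 of 5 lay below 2, and Ttr, which islet cells also make, lay at 10.29 to 10.41. Of 4 macrophage and blood markers, Ptprc, Adgre1 and Csf1r lay between 0.92 and 1.95. Cd68, a lysosomal protein that is not limited to macrophages, stood at 3.32 and 3.35 in siNTC and at 4.44 and 4.48 in siNF90. Its adjusted p in limma was 0.342, and 0.0217 with the prior that depends on the level. The level of these 4 markers, summed before taking logs, lay at 4.0 and 4.1 in siNTC and at 4.9 and 4.83 in siNF90 (log2). Cd68 was the highest of the 4 on every array. The differences of Ptprc (-0.015) and Adgre1 (-0.03) were near 0, and Csf1r stood at 1.95 and 1.07 in siNF90. The part of these markers in the values below was not tested. In a bulk sample, fewer cells of a type and less RNA per cell cannot be told apart.

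Across the members there was no common shift. Of 38, 17 differences (siNF90 minus siNTC) lay above 0, 20 below it and 1 at 0, with a median of -0.03 on the log2 scale, beside a median of 0.02 over all genes. The median size of a difference, whatever its direction, was 0.13 in the members and 0.13 over all genes. No member passed limma's test at an adjusted p under 0.05 over all genes, nor did any other gene (0.0% of those tested), and the members' adjusted p ran from 0.357 to 1. At an unadjusted p under 0.05, 4 members were higher in siNF90 (Srebf1, Mvd, Tm7sf2 and Nsdhl) and 2 lower (Insig1 and Elovl1), where 5.87% and 4.41% of all genes were. That is 15.8% of the members beside 10.3% of all genes. With a variance prior that depends on the expression level, 1 member, Insig1, passed over all genes in the lower direction, beside 0.221% of all genes, and none in the higher direction, beside 0.234%.

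**Figure D1:**
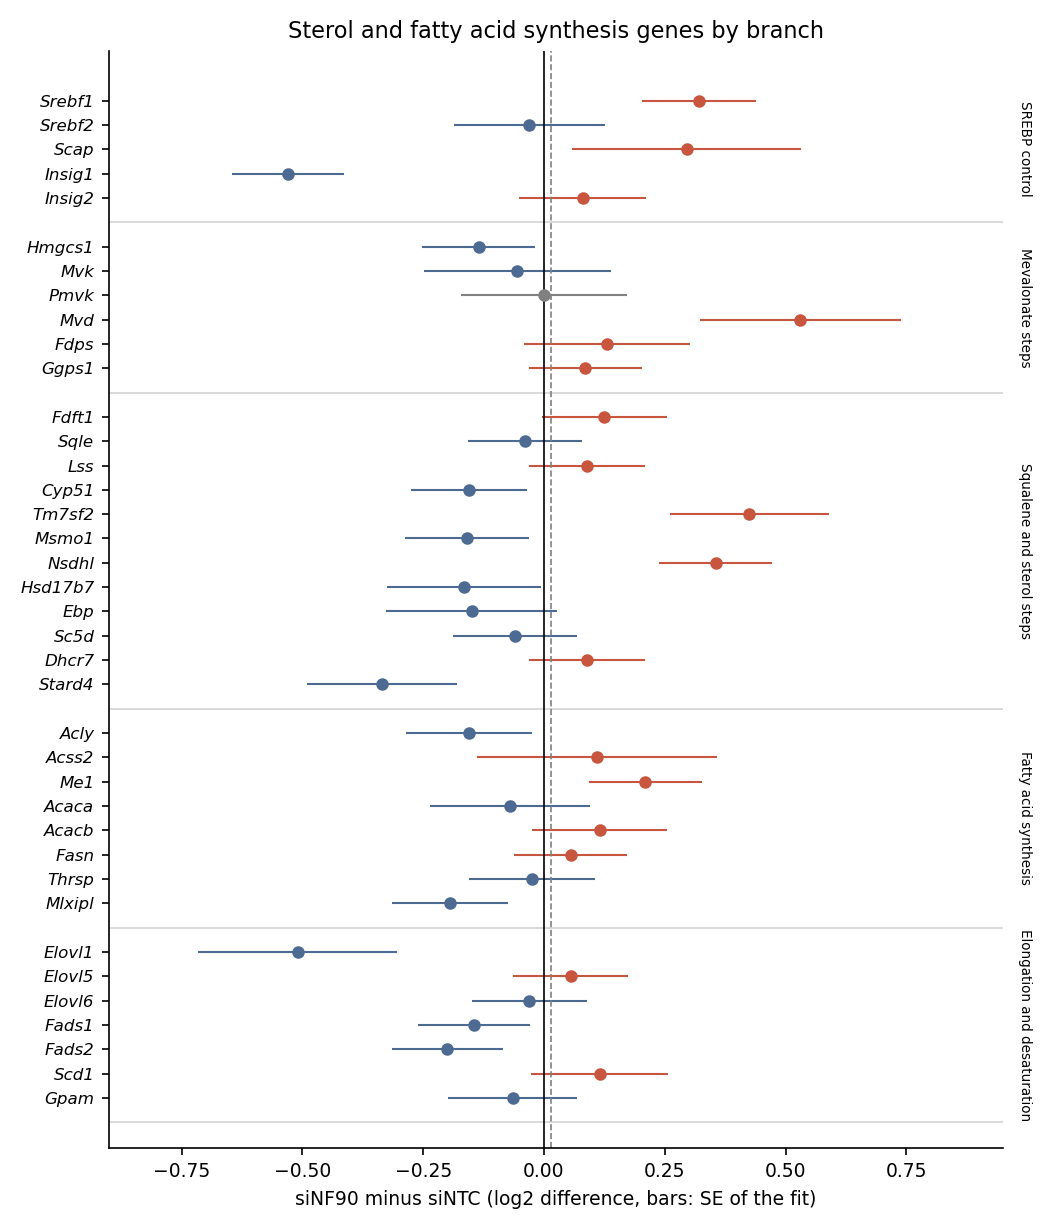
Difference between siNF90 and siNTC for each of the 38 measured members, as log2 differences on the horizontal axis with bars for the standard error of limma's fit (2 arrays in each group). Points above 0 are red and below 0 blue, the dashed line marks the median of all genes at 0.02, and Insig1 (-0.53), Mvd (0.53), Elovl1 (-0.51), Tm7sf2 (0.42) and Nsdhl (0.35) lie farthest from 0.

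In 20 of the 38 members the arrays of the groups did not overlap, 10 higher and 10 lower in siNF90, which is 26.3% of the members each way. Over all genes 39.8% lay without overlap, 21.9% higher and 17.9% lower. The nearest arrays of the groups lay only 0.01 apart in Fdft1, Lss, Dhcr7, Acly and Fasn. The members' arrays also lay close to each other within a group. The median gap between the arrays of a group was 0.12 in siNTC and 0.1 in siNF90 for the members, beside 0.15 in both groups over all genes. In 14 members the difference between the groups exceeded both gaps (36.8%, beside 28.8% of all genes). Most members lay in the upper part of the range. A filter at the median level kept 36 of the 38 members but 11455 of the 22180 genes. These gaps and shares were not compared with those of genes of similar level.

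**Figure D2:**
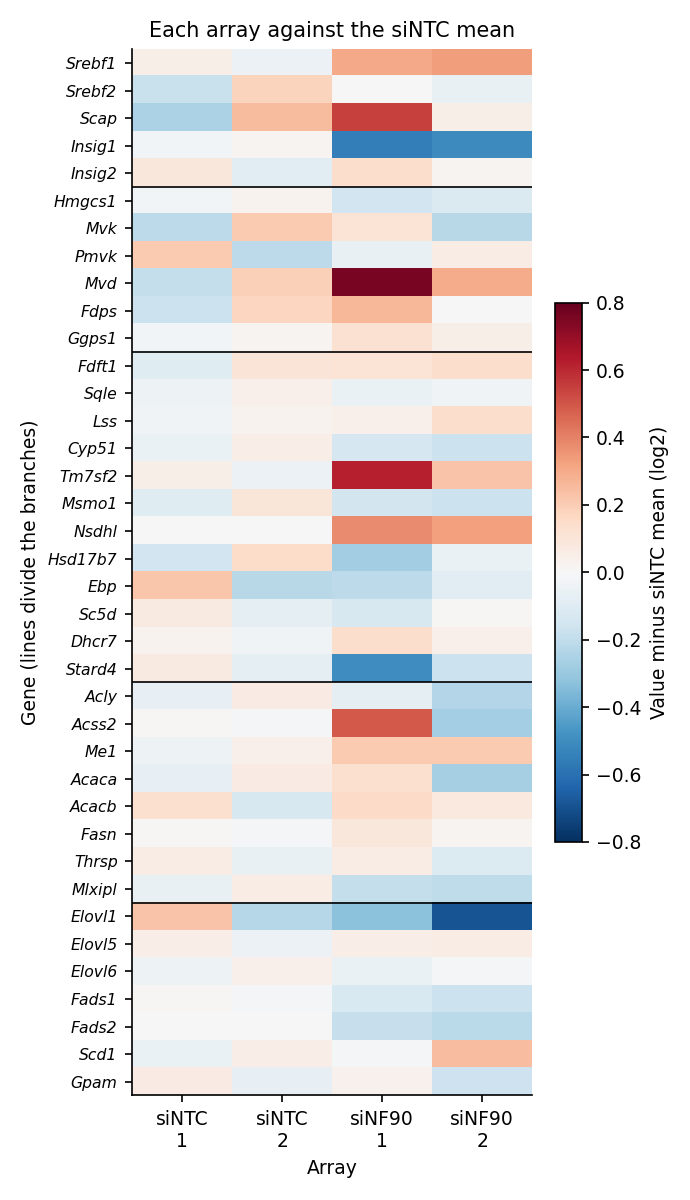
Each array's value minus the siNTC mean of the gene (log2, colour scale from -0.8 to 0.8) for the 38 measured members, with lines between the branches. Insig1 is low on both siNF90 arrays and Srebf1 and Nsdhl high on both, while in Scap and Acss2 the first siNF90 array stands apart from the second.

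SREBP control comes first, because its members regulate the others. Insig1, the sterol-responsive anchor of Scap (probe set 17435584, gene identifier 231070, chromosome 5), stood at 8.37 and 8.41 on the siNTC arrays and at 7.84 and 7.88 on the siNF90 arrays (log2). The siNF90 arrays were thus the lower pair, without overlap, and the gap between the arrays of a group was 0.04 in each. Insig1 was 1.44-fold lower in siNF90, at 8.39 ± 0.03 and 7.86 ± 0.03 (SD, n = 2 arrays each). The log2 difference was -0.53 ± 0.12 (SE), with limma's adjusted p of 0.357 over all genes. With the variance prior that follows the level, its standard error was 0.06 and it fell (limma, adjusted p = 0.0153). The difference lay between -0.55 and -0.51 whichever array was left out and under each other setting, and adjusted p ran from 0.0153 to 0.764.

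Insig2, the second anchor, stood at 5.78 and 5.6 in siNTC and at 5.83 and 5.71 in siNF90. These arrays overlapped, and the difference of 0.08 ± 0.13 (log2, SE) was smaller than the gap between the siNTC arrays. Its direction turned when the second siNTC array was left out (-0.01). Scap stood at 4.24 and 4.75 in siNTC and at 5.04 and 4.54 in siNF90. The second siNF90 array lay below the second siNTC array, and the difference of 0.295 ± 0.24 was smaller than the gap of 0.5 between the siNF90 arrays. It ran from 0.04 without the first siNTC array to 0.55 without the second. A second probe set for Scap lay at 0.75 to 1.06 on all arrays, below every array's lower quartile, and gave a difference of -0.11.

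Srebf1, which encodes SREBP-1a and SREBP-1c, stood at 4.77 and 4.68 in siNTC and at 5.03 and 5.06 in siNF90. The siNF90 arrays were the higher pair, a 1.25-fold difference (0.32 ± 0.12, log2 and SE) that did not pass limma's test (adjusted p = 0.458). The probe set is named for the gene, so the forms cannot be told apart. Srebf2, which encodes SREBP-2, stood at 5.08 and 5.44 in siNTC and at 5.26 and 5.2 in siNF90. Both siNF90 arrays lay between the siNTC arrays, and the difference was -0.03 ± 0.16, turning to 0.15 without the second siNTC array. Within this branch, then, the SREBP-1 gene and Insig1 lay on opposite sides with separate groups, and the other 3 genes overlapped. That is 20% of the branch each way, close to the 21.9% higher and 17.9% lower over all genes.

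**Figure D3:**
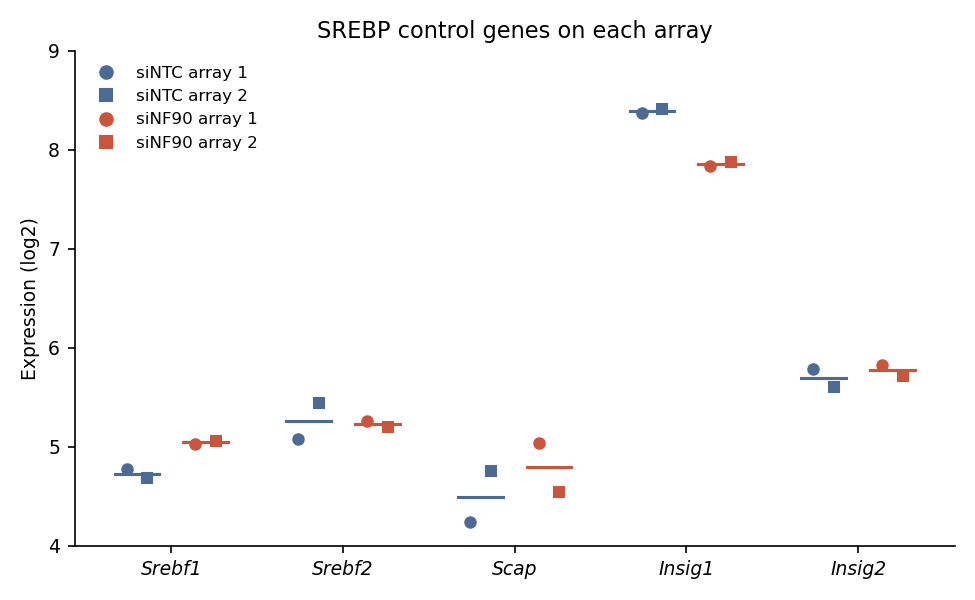
Expression of the 5 SREBP control genes on each array (log2 on the vertical axis, which starts at 4), with short lines for the group means of 2 arrays. Insig1 separates by 0.53 with arrays 0.04 apart within each group, whereas the arrays of Srebf2, Scap and Insig2 overlap between the groups.

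The sequence before the start of Insig1 is shown beside those of Hmgcs1, a classical SREBP-2 target whose groups lay close together, and Nsdhl, a sterol enzyme that lay higher in siNF90. Each is the 250 bases before the annotated start, 5' to 3' on the gene's strand, from RefSeq (GRCm38.p6). Capitals mark TCACNCCAC (a short form of the sterol regulatory element), CACGTG (the E-box that basic helix-loop-helix factors, ChREBP and SREBP-1 among them, can bind) and CCAAT or its complement ATTGG (the box bound by NF-Y, a partner of SREBP).
Insig1, chr5:28071162-28071411, plus strand: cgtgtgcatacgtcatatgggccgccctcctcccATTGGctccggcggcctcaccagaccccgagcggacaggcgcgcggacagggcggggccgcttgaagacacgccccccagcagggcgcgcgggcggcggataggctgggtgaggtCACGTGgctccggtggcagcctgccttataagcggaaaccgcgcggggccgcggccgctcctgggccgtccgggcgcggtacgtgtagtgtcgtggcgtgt
Hmgcs1, chr13:119690101-119690350, plus strand: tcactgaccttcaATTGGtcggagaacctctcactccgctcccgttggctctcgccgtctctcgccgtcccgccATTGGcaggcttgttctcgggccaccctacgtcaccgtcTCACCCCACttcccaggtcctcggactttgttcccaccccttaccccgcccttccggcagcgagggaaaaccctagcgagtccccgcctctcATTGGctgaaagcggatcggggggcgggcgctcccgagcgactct
Nsdhl, chrX:72918271-72918520, plus strand: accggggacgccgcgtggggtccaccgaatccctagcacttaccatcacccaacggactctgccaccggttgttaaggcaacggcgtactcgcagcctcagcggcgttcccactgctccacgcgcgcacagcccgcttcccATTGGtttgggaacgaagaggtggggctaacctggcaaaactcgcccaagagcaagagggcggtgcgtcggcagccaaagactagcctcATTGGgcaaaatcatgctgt

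In these windows Insig1 held 1 CACGTG, whose first base lies 101 bases before the start, and 1 CCAAT box, and Hmgcs1 held 1 TCACNCCAC at 137 bases and 3 CCAAT boxes. Nsdhl held 2 CCAAT boxes and neither other motif. RefSeq gave 44 such windows for 32 of the measured members, some of them for alternative starts of a gene. On either strand, CACGTG was found in 7 of the 44, beside 6.02% of the 32851 windows of all genes. TCACNCCAC was found in 2 of the 44, beside 1.05% of all windows, and CCAAT in 28 of the 44, beside 33.8% of all windows. The full classical sterol regulatory element was found in 0 of the 44 (0.0731% of all windows). CACGTG matches lay before 7 members, and these differed both ways: Insig1, Mlxipl (-0.2), Hsd17b7 (-0.17) and Sc5d (-0.06) below 0, and Dhcr7 (0.09), Elovl5 (0.06) and Scap (0.295) above it (log2). A match shows only that these letters are in the window.

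The mevalonate steps turn acetyl-CoA into the isoprenoid units of sterols, and 6 of their 8 genes were measured, with a median difference of 0.04. Hmgcs1, the synthase of hydroxymethylglutaryl-CoA, stood at 6.98 and 7.03 in siNTC and at 6.85 and 6.89 in siNF90. The groups did not overlap, and the 1.1-fold difference (-0.14 ± 0.12, log2 and SE) did not pass limma's test (adjusted p = 0.75). Mvd, the decarboxylase that makes isopentenyl diphosphate, stood at 2.58 and 2.96 in siNTC and at 3.53 and 3.07 in siNF90. Its siNF90 arrays lay above the siNTC arrays, the difference was 0.53 ± 0.21 (limma, adjusted p = 0.477), and it ran from 0.3 without the first siNF90 array to 0.76 without the second.

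Fdps, which joins the isoprenoid units to farnesyl diphosphate, stood at 5.46 and 5.81 in siNTC and at 5.9 and 5.63 in siNF90. These arrays overlapped (0.13 ± 0.17), and the difference turned to -0.05 without the first siNTC array. Ggps1, which extends farnesyl to geranylgeranyl diphosphate for protein prenylation, stood at 6.42 and 6.46 in siNTC and at 6.56 and 6.49 in siNF90, a separate but small difference of 0.09 ± 0.12. The kinases Mvk and Pmvk had overlapping arrays, with differences of -0.06 ± 0.19 and 0 ± 0.17.

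From squalene to cholesterol, 12 of 12 genes were measured, with a median difference of -0.05. Nsdhl, a dehydrogenase of the C-4 demethylation complex, stood at 6.85 on both siNTC arrays and at 7.23 and 7.18 in siNF90. Both siNF90 arrays lay above siNTC by far more than the arrays of a group differed, a 1.28-fold difference of 0.355 ± 0.12 (log2, SE). It did not pass limma's test (adjusted p = 0.432, and 0.098 to 0.764 under the other settings, lowest with the variance prior that follows the level), and it stayed between 0.33 and 0.38. Tm7sf2, a sterol C-14 reductase, stood at 4.09 and 3.99 in siNTC and at 4.66 and 4.27 in siNF90. The groups did not overlap, with a 1.34-fold difference (0.42 ± 0.16, limma, adjusted p = 0.474) that ran from 0.23 without the first siNF90 array to 0.62 without the second.

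Other enzymes of the same stretch lay lower in siNF90. Cyp51, the C-14 demethylase that acts just before Tm7sf2, stood at 6.61 and 6.72 in siNTC and at 6.53 and 6.49 in siNF90, a separate difference of -0.16 ± 0.12 (limma, adjusted p = 0.716). Msmo1, the methyl oxidase that works in the same complex as Nsdhl, had means of 5.71 ± 0.13 and 5.55 ± 0.02 (SD) without overlap (-0.16 ± 0.13, SE). So within the C-4 demethylation complex the measured genes lay on both sides, Nsdhl above, and Msmo1 and the reductase Hsd17b7 (-0.17 ± 0.16, overlapping) below. Whether these genes differ from each other was not tested.

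Stard4, a carrier of cholesterol between membranes, stood at 4.81 and 4.67 in siNTC and at 4.24 and 4.57 in siNF90. Both siNF90 arrays lay lower, and the difference of -0.335 ± 0.155 (limma, adjusted p = 0.533) was -0.17 without the first siNF90 array and -0.5 without the second. The remaining 6 genes of this stretch differed by -0.15 to 0.13. Fdft1 (squalene synthase, 0.13 ± 0.13), Lss (which closes the sterol rings, 0.09 ± 0.12) and Dhcr7 (the last reductase of one route to cholesterol, 0.09 ± 0.12) lay higher without overlap. For each of them the nearest arrays of the groups lay only 0.01 apart. In Sqle (squalene epoxidase, -0.04 ± 0.12), Sc5d (a sterol desaturase, -0.06 ± 0.13) and the isomerase Ebp (-0.15 ± 0.18) the arrays overlapped.

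**Figure D4:**
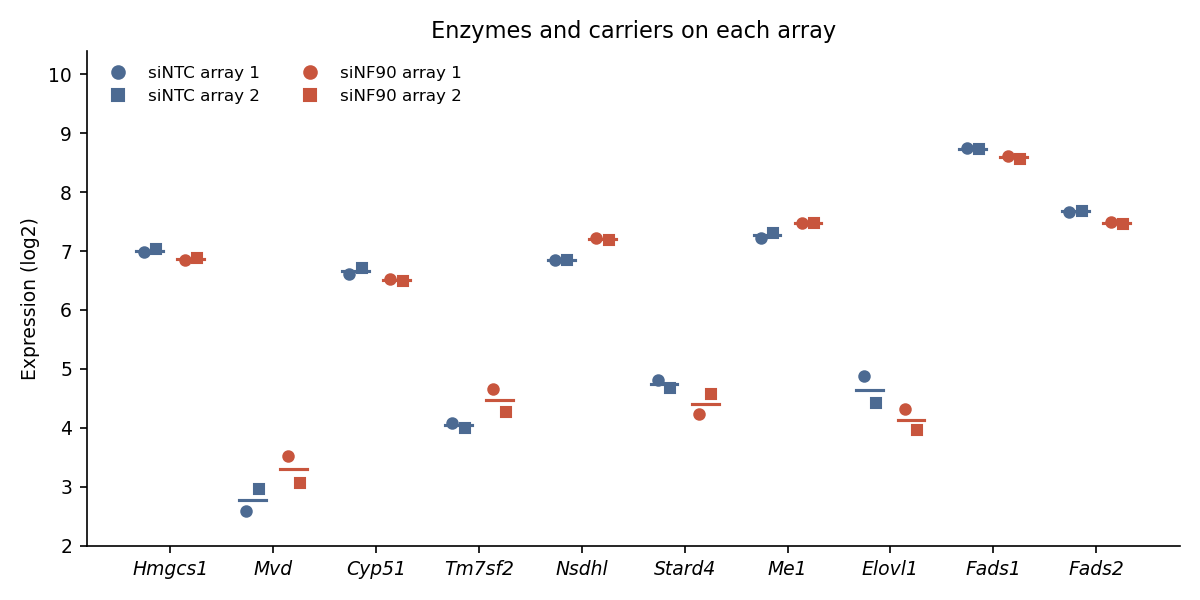
Expression on each array (log2, axis from 2) of 10 enzymes and carriers of the sterol and fatty acid branches, with group means of 2 arrays as lines. Nsdhl and Me1 lie higher and Fads1 and Fads2 lower in siNF90 with little spread, while Mvd, Tm7sf2, Stard4 and Elovl1 spread by up to 0.46 between arrays of a group.

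Of the 18 sterol genes measured, 7 lay higher and 4 lower without overlap, which is 38.9% and 22.2% (21.9% and 17.9% over all genes). Among those 7, the nearest arrays of the groups lay 0.01 apart in Fdft1, Lss and Dhcr7 and 0.03 apart in Ggps1. At an unadjusted p under 0.05 there were 3 higher and 0 lower (limma, beside 5.87% and 4.41% of all genes). Of the 15 genes of fatty acid synthesis and desaturation measured, 2 lay higher and 5 lower without overlap (13.3% and 33.3%), and at that p there were 0 higher and 1 lower. Median differences were -0.02 and -0.03, and neither difference between these branches was tested. The fatty acid median ran from -0.165 without the first siNF90 array to 0.035 without the second.

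In the supply of fatty acid precursors, Acly, which splits citrate to cytosolic acetyl-CoA, stood at 8.8 and 8.93 in siNTC and at 8.79 and 8.63 in siNF90. The groups did not overlap, by 0.01 between the nearest arrays (-0.16 ± 0.13, and -0.075 without the second siNF90 array). Me1, the cytosolic malic enzyme that yields NADPH, stood at 7.23 and 7.31 in siNTC and at 7.48 on both siNF90 arrays. It lay 1.16-fold higher without overlap (0.21 ± 0.12, limma, adjusted p = 0.6). Acss2, which makes acetyl-CoA from acetate, stood at 4.24 and 4.22 in siNTC and at 4.72 and 3.96 in siNF90, so its siNF90 arrays lay on either side of siNTC, and the difference of 0.11 ± 0.25 rests on the first.

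The enzymes that make malonyl-CoA and palmitate differed little. Fasn, the fatty acid synthase, stood at 6.1 and 6.08 in siNTC and at 6.18 and 6.11 in siNF90, a difference of 0.06 ± 0.12 (log2, SE). Acaca, the cytosolic acetyl-CoA carboxylase, differed by -0.07 ± 0.17 with overlapping arrays. Acacb, the mitochondrial form, stood at 1.34 and 1.08 in siNTC and at 1.36 and 1.29 in siNF90, and Thrsp, a lipogenic protein of liver and fat, at 1.06 to 1.23. Every value of Acacb and Thrsp lay below the median of its array, and there is no measure of background here. Mlxipl, which encodes ChREBP, the glucose-responsive activator of lipogenic genes, stood at 7.39 and 7.51 in siNTC and at 7.26 and 7.25 in siNF90. It lay 1.14-fold lower without overlap (-0.195 ± 0.12, limma, adjusted p = 0.637).

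Among elongases, which lengthen fatty acids in the endoplasmic reticulum, Elovl1, an enzyme of very long chains, stood at 4.88 and 4.42 in siNTC and at 4.32 and 3.96 in siNF90. The siNF90 arrays lay below the siNTC arrays by 0.1 at the nearest, while the arrays of a group lay up to 0.46 apart. Its 1.42-fold difference (-0.51 ± 0.205, limma, adjusted p = 0.485) was -0.28 without the first siNTC array and -0.74 without the second. Elovl5, which acts on polyunsaturated fatty acids, and Elovl6, which extends palmitate, had overlapping arrays, with differences of 0.06 ± 0.12 and -0.03 ± 0.12.

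Fads1 and Fads2, the delta-5 and delta-6 desaturases of polyunsaturated fatty acid synthesis, both lay slightly lower with little spread. Fads2 stood at 7.67 and 7.68 in siNTC and at 7.49 and 7.46 in siNF90, 1.15-fold lower (-0.2 ± 0.115, limma, adjusted p = 0.612). Fads1 stood at 8.75 and 8.73 in siNTC and at 8.62 and 8.57 in siNF90, 1.11-fold lower (-0.145 ± 0.12, limma, adjusted p = 0.727). Fads3, their neighbour in RefSeq's gene order on chromosome 19 and not itself a member, stood at 3.33 and 3.7 in siNTC and at 4.07 and 3.98 in siNF90, a difference of 0.51 ± 0.16 in the other direction (limma, adjusted p = 0.417), which was 0.325 without the first siNTC array and 0.695 without the second. Differences between these neighbours were not tested.

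Scd1, the stearoyl-CoA desaturase that makes oleate, stood at 6.28 and 6.39 in siNTC and at 6.32 and 6.58 in siNF90, with overlapping arrays (0.115 ± 0.14). Leaving out the second siNF90 array turned the difference to -0.02. Scd3, a close copy of Scd1 on the same stretch of chromosome 19, stood at 2.77 and 2.99 in siNTC and at 3.29 and 3.46 in siNF90 (0.495 ± 0.14, limma, adjusted p = 0.409). Probes of such close copies can share signal, so values of the Scd genes are uncertain. Gpam, which starts glycerolipid synthesis from glycerol-3-phosphate, had means of 4.42 ± 0.09 and 4.35 ± 0.14 (SD) with overlapping arrays.

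Other genes around SREBP processing were taken from a list by function. Of 14 genes of SREBP transport, proteolysis and turnover, 12 were measured, 7 above 0 and 5 below, and none passed over all genes. At an unadjusted p under 0.05 there were 1 higher and 1 lower, beside 5.87% and 4.41% of all genes. Sec23a, a subunit of the COPII coat that carries Scap out of the endoplasmic reticulum, stood at 6.57 and 6.45 in siNTC and at 6.98 and 6.97 in siNF90, 1.38-fold higher (0.465 ± 0.12, limma, adjusted p = 0.386, and 0.0605 to 0.764 under the other settings). Its partner Sec24a stood at 6.85 and 6.75 in siNTC and at 6.99 and 6.98 in siNF90 (0.185 ± 0.12). Erlin1, a membrane protein of the complex that degrades sterol-regulated proteins, stood at 5.72 and 5.69 in siNTC and at 5.34 and 5.26 in siNF90, 1.32-fold lower (-0.405 ± 0.12, limma, adjusted p = 0.409). In these 3 genes, named for the smallest p in the list, the groups did not overlap. Of the 12 measured, 5 lay higher and 3 lower without overlap, beside 21.9% and 17.9% of all genes.

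Of 16 genes of sterol esterification, transport and export, 14 were measured, 9 above 0 and 5 below, and none passed over all genes (2 lower and 0 higher at an unadjusted p under 0.05 in limma, beside 4.41% and 5.87% of all genes). Vldlr, a lipoprotein receptor, stood at 7.11 and 6.94 in siNTC and at 6.65 and 6.55 in siNF90, 1.34-fold lower (-0.425 ± 0.13, limma, adjusted p = 0.415). Abcg1, a sterol exporter and textbook target of the oxysterol receptors, stood at 5.18 and 5.27 in siNTC and at 5.44 and 5.6 in siNF90, 1.23-fold higher (0.295 ± 0.13, limma, adjusted p = 0.507). The related Abcg4 stood at 1.62 and 2.27 in siNTC and at 1.28 and 1.43 in siNF90. Every value but that of the second siNTC array lay below its array's median. The difference of -0.59 ± 0.225 was -0.915 without the first siNTC array and -0.265 without the second. In all 3 genes, again named for the smallest p in the list, the groups did not overlap. Of the 14 measured, 6 lay higher and 3 lower without overlap, beside 21.9% and 17.9% of all genes.

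Of 21 genes of the elongation cycle and other fatty acid enzymes, 19 were measured, 9 above 0 and 10 below. None passed over all genes, and 3 were higher and 1 lower at an unadjusted p under 0.05 (limma), beside 5.87% and 4.41% of all genes. Besides Scd3 and Fads3, Elovl4, an elongase of very long chains, stood at 5.83 and 5.74 in siNTC and at 6.06 and 6.19 in siNF90, 1.27-fold higher (0.34 ± 0.12, limma, adjusted p = 0.455). Among the elongase genes, Elovl4 thus lay higher, Elovl1 and Elovl7 (-0.275 ± 0.14) lower without overlap, and Elovl2, Elovl3, Elovl5 and Elovl6 overlapped. Every value of Elovl2 and Elovl3 lay below the median of its array.

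**Figure D5:**
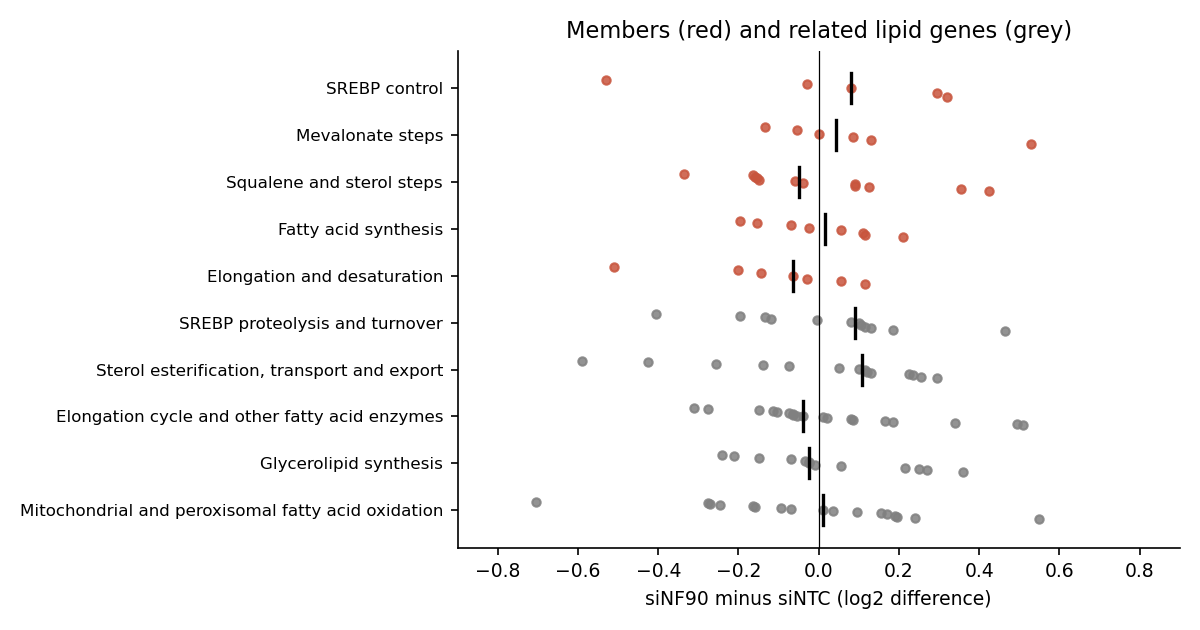
Log2 differences (siNF90 minus siNTC) of each measured gene in the 5 member groups (red) and in 5 lists of related lipid genes (grey), with a black line at each list's median. Every median lies between -0.07 and 0.11, and single genes spread to both sides in each list.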

How the data were processed

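The authors deposited 1 table of log2 values for 41345 probe sets on 4 arrays, produced in Transcriptome Analysis Console (named in the submitters' processing notes). Version, background correction, normalization and summarization were not given in the sources used here. The log base was inferred from the range of the values, and no detection calls were used, so low values carry no verdict on detection.

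The platform annotation gave 23521 probe sets 1 symbol, 1814 several and 16010 none, and keeping the probe set with the highest mean left 22180 genes. All were fitted together in limma 3.58.1 (R 4.3.3, lmFit and eBayes without a trend, 2 residual and 3.92 prior degrees of freedom) as siNF90 minus siNTC, with two-sided p-values and Benjamini-Hochberg adjustment over all genes. The prior pools the spread of all genes, so a member's SE does not measure the spread of its own values alone. In this fit no member's SE lay below 0.115. With so few arrays an exact permutation p has a floor of 0.333, so none was used. The fit was run on simulated data with known changes, all larger than any difference among the members. That run does not show how often changes of the sizes seen here would be found.

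Members and lists were chosen with earlier results of these data known. Of the promoter sequences, only that of Insig1 was planned, and those of Hmgcs1 and Nsdhl were chosen with their values known. Array values are given for SREBP control, for the 4 members with the smallest p in each other group and for 3 genes of each related list; those of Acss2 and Fasn, and the names of the remaining members and of Elovl7, and the cell markers shown, were added after their values were seen. Alternatives were a trend or robust prior, the replicate block, quantile normalization, median centring, a filter at the median level, the mean of probe sets and leaving out each array.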

Additional observations from a re-analysis of the deposited data

How the results depend on the processing

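The 11 other settings left the direction of Insig1, Srebf1, Nsdhl, Mvd, Tm7sf2, Elovl1, Fads1 and Fads2 as it was. With the variance prior that follows the level, 101 genes passed at an adjusted p under 0.05 instead of 0, 1 of them a member (Insig1, -0.53). In that fit 5 members instead of 2 were lower at an unadjusted p under 0.05 (limma, Mlxipl, Fads1 and Fads2 added), and 5 instead of 4 were higher (Me1 added). With the replicate number as a block, 0 genes passed at an adjusted p under 0.05 and 2 members were higher at an unadjusted p under 0.05 instead of 4 (Tm7sf2 and Nsdhl). The numbers share no stated batch, and deviations of same-numbered arrays correlated at -0.02 across genes, so they were not taken as pairs. With the filter at the median level, 1 member was lower instead of 2 (Insig1), and 3 were higher instead of 4, without Mvd. Mvd also dropped out with median centring. Leaving out an array leaves 1 residual degree of freedom and a group of 1 array, assumed to vary like the other. Over these 4 fits the members past an unadjusted p under 0.05 (limma) changed. Insig1 was among them in each fit and Srebf1 in none. Differences ran from -0.55 to -0.51 (Insig1), 0.33 to 0.38 (Nsdhl) and 0.275 to 0.365 (Srebf1). They ran from 0.3 to 0.76 in Mvd, 0.23 to 0.62 in Tm7sf2 and -0.74 to -0.28 in Elovl1. Branch medians ran from -0.005 to 0.03 (sterol steps), from -0.165 to 0.035 (fatty acids), from 0.02 to 0.15 (SREBP control) and from -0.02 to 0.038 (all members). Direction was followed through the settings for only 21 members, those of SREBP control and the 4 of smallest p in each other group. Among these it turned for Fdps (-0.045 to 0.305), Srebf2 (-0.21 to 0.15), Insig2 (-0.01 to 0.17), Acacb and Scd1 (each -0.015 to 0.245). The cause was not tested.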

Other observations

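Genes that use fatty acids were described beside those that make them. Of 19 genes of fatty acid oxidation, 17 were measured, 9 above 0 and 8 below, with a median difference of 0.01 (log2, siNF90 minus siNTC), and 1 lay higher and 6 lower without overlap, where 21.9% and 17.9% of all genes did. None passed over all genes in limma's fit. Decr1, a mitochondrial reductase needed to oxidise polyunsaturated fatty acids, stood at 3.47 and 3.64 in siNTC and at 3.05 and 2.65 in siNF90, 1.63-fold lower (-0.705 ± 0.17, log2 and SE, limma, adjusted p = 0.362). Acads, the dehydrogenase of short chains, stood at 4.15 and 4.02 in siNTC and at 4.84 and 4.43 in siNF90, 1.46-fold higher (0.55 ± 0.17, limma, adjusted p = 0.417), a difference of 0.345 without the first siNF90 array. Cpt1a, the carnitine transferase that malonyl-CoA inhibits, stood at 5.38 and 5.37 in siNTC and at 5.14 and 5.07 in siNF90, 1.21-fold lower with separate groups (-0.27 ± 0.12, limma, adjusted p = 0.507).

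Of 13 genes of glycerolipid synthesis, all were measured, 5 above 0 and 8 below, with a median of -0.03, and 0 lay past an unadjusted p of 0.05 in either direction (limma), beside 10.3% of all genes. Agpat1, an acyltransferase of phosphatidic acid synthesis, stood at 4.68 and 4.75 in siNTC and at 4.98 and 4.95 in siNF90 (0.25 ± 0.12). Dgat2, which completes triglycerides, stood at 2.33 and 2.64 in siNTC and at 2.78 and 2.73 in siNF90 (0.27 ± 0.15), and its difference was 0.115 without the first siNTC array and 0.425 without the second. Agpat4 stood at 3.68 and 3.47 in siNTC and at 4.21 and 3.66 in siNF90, with overlapping arrays (0.36 ± 0.21), and its difference ran from 0.085 without the first siNF90 array to 0.635 without the second.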
